A study of Homo sapiens with 9 samples.

Results

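The 3 arrays numbered replicate 1, of 9 in all, were set against the 6 arrays numbered replicates 2 and 3. The arrays were chosen by the number that ends each sample's title, 1 from each transfection group. All 9 cultures were WM266-4 GFP cells, an established human line from a melanoma metastasis that carries green fluorescent protein, lipofected with Lipofectamine 2000 and collected 48 h later. The 3 groups received a control microRNA at 0.5 nM, a miR-199a-3p mimic at 0.5 nM or the same mimic at 0.25 nM, with 3 biological replicates each. A mimic is a synthetic RNA duplex that acts as the named microRNA, and lipofection exposes every group, the control included, to the lipid and a transfected RNA. Whether the line is 1 clone, and whether a replicate number marks a shared day, plate or passage across groups, is not stated in the labels. Replicate number and such circumstances therefore cannot be told apart.

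This split was put forward with results of these data in view: a limma fit of replicate 1 against the rest without a term for group had called 127 genes (0.857% of 14812), and the genes STC1, VEGFA, ANGPTL4, FMOD, LUM and MMP1 had been picked as its markers. The differences between replicate 1 and the rest are therefore given as a description, with no test. Values were log2 intensities, so that 1 unit is a 2-fold difference. Each gene was represented by its brightest row, and its difference was taken inside each group, as replicate 1 minus the mean of replicates 2 and 3. Replicate 1 was called apart for a gene where it lay beyond every measured value of replicates 2 and 3 of its own group, in 1 direction in all 3 groups, with a mean of the 3 group differences of at least 0.5 log2 units (1.41-fold). By this rule replicate 1 was apart for 151 of 14812 genes (1.02%): it was higher for 69 (0.466%) and lower for 82 (0.554%). The higher genes included STC1, with the largest mean difference, and other hypoxia-induced genes beside receptors, adhesion proteins and small RNA genes. The lower genes included small leucine-rich proteoglycans, matrix-degrading enzymes, chemokines and a subunit of the replicative helicase.

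Hypoxia-inducible factor, a transcription factor that accumulates when oxygen is short, binds short DNA elements and switches on genes of blood vessel growth, anaerobic metabolism and mitochondrial turnover. Cells in culture can meet low oxygen when they are dense or when the medium above them is deep. Small leucine-rich proteoglycans are secreted proteins that coat collagen fibrils and set their spacing, and matrix metalloproteinases cut collagen. The minichromosome maintenance complex is the helicase that is loaded on DNA before S phase, and its genes are classic targets of E2F transcription factors.

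Several of the genes described here carry the recognised core of these factors upstream of their start, and the stretches are shown so that the letters can be read beside the values. They are RefSeq promoter sequence of GRCh38.p14, written 5′ to 3′ on the gene's strand. In each stretch capitals mark only the core or site it is shown for. The hypoxia response core was searched as ACGTG and GCGTG on both strands, so that it also appears as CACGT and CACGC, and overlapping matches were counted separately. The BNIP3 stretch, chr10:131982008-131982081 on the minus strand, lies 158 to 85 bases before the start and holds 6 matches. The ANGPTL4 stretch, chr19:8363906-8363940 on the plus strand, lies 249 to 215 bases before the start and holds 1.
BNIP3: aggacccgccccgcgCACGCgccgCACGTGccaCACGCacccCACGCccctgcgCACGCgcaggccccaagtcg
ANGPTL4: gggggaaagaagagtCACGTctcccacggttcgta
This short core was common: 13213 of 27305 promoters (48.4%) held it within 250 bases before to 50 bases after the start. It was found in 14 of the 17 promoters matched to the hypoxia-induced list (82.4%). BNIP3 held the most matches of the 17, and STC1, VEGFA and HILPDA had no promoter among them.

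The E2F site was searched as TTTGGCGC, TTTCCCGC, TTTCGCGC and TTTGCCGC on both strands. It was found in 908 of 27305 promoters (3.33%) and in 12 of the 18 promoters matched to the DNA replication list (66.7%). The helicase gene MCM6 had 4 matches at chr2:135876507-135876610, MCM7 had 2 at chr7:100101398-100101599, and PCNA, the sliding clamp of DNA polymerase, had 1 at chr20:5126659-5126696, all on the minus strand.
MCM6: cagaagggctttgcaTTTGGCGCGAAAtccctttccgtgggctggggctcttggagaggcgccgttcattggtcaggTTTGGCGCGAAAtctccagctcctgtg
MCM7: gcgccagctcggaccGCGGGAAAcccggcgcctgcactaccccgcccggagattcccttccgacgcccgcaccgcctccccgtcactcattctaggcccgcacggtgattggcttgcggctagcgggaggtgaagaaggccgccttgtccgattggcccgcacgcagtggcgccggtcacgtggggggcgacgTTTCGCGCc
PCNA: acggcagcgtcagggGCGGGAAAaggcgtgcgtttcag
The MCM7 and PCNA stretches also hold the hypoxia response core, in small letters. A match describes the letters in the window, not binding of a factor. The shares with a match describe the lists and use no array value.

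The arrays were of similar overall level, with medians of 4.94 to 5.15. In 0.25 nM replicate 3 some values had been stored with under 10 digits and were left out, which removed that array's value for 2834 genes (19.1%), and differences for those genes used replicate 2 alone in that group. Markers of the melanocytic lineage were present: 13 of the 15 measured were brighter than 6.24, the median gene level, with MITF, SOX10, S100B, PMEL and TYR among them. Keratinocyte markers lay below that median for 7 of 7 genes measured, endothelial markers for 3 of 4, immune markers for 3 of 4 and fibroblast markers for 3 of 3.

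Among the hypoxia-induced genes, replicate 1 was apart and higher for 5 of the 24 measured, against 0.466% of all genes. STC1, VEGFA and ANGPTL4 were among the genes the split was chosen for, so this count describes that choice and supports nothing. STC1 encodes stanniocalcin, a secreted glycoprotein. It read 5.75 in replicate 1 against 3.96 on both other arrays of the control, 5.14 against 3.83 and 3.90 at 0.5 nM, and 5.89 against 4.43 on both at 0.25 nM. Ties within groups point to groups summarised separately, which the processing notes do not state, so the difference inside each group is the measure used. On the deposited scale the lowest replicate 1 value of STC1 lay above its highest value elsewhere, and the mean difference was 1.51 ± 0.26 log2 units (SD over 3 groups), or 2.85-fold on this scale. STC1 was a dim gene: its values in replicates 2 and 3 lay under the array medians, no background level was used here, and the fold rests on values not shown to be above background. The same limit holds for other genes, LUM, MMP1, CCL2, FGL2, CXCL8, IL33 and ZNF480 among them, whose lowest replicate 1 values also lay under the medians.

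VEGFA, the main growth factor of blood vessels, read 8.45 against 7.64 and 7.72 in the control, 8.84 against 7.67 and 7.80 at 0.5 nM, and 8.79 against 7.99 on both at 0.25 nM. The mean difference was 0.89 ± 0.19 (SD, n = 3), or 1.85-fold, and the groups of arrays did not overlap. ANGPTL4, a secreted inhibitor of lipoprotein lipase, read 8.36 against 7.68 and 7.77, then 8.13 against 7.29 and 7.31, and at 0.25 nM 8.18 against 7.20 in replicate 2. Here too every replicate 1 array lay above every other, by 0.82 ± 0.17 on average, or 1.76-fold.

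HILPDA, a lipid droplet protein that restrains triglyceride breakdown, and BNIP3, a mitophagy receptor of the outer mitochondrial membrane, were not used to choose the split by name. HILPDA read 8.43 against 7.68 and 7.55 in the control, 8.50 against 7.69 and 7.61 at 0.5 nM, and 8.50 against 7.80 and 7.84 at 0.25 nM. Its 3 replicate 1 arrays lay close together and above the other 6, at a mean difference of 0.79 ± 0.09 or 1.72-fold. BNIP3 read 10.23 against 9.78 and 9.79, 10.89 against 10.26 on both, and 10.29 against 9.88 and 9.83. For BNIP3 replicate 1 stood 0.51 ± 0.11 above the rest within groups, but control replicate 1 lay below both other arrays of the 0.5 nM group, so the ranges over all arrays overlapped.

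**Figure D1:**
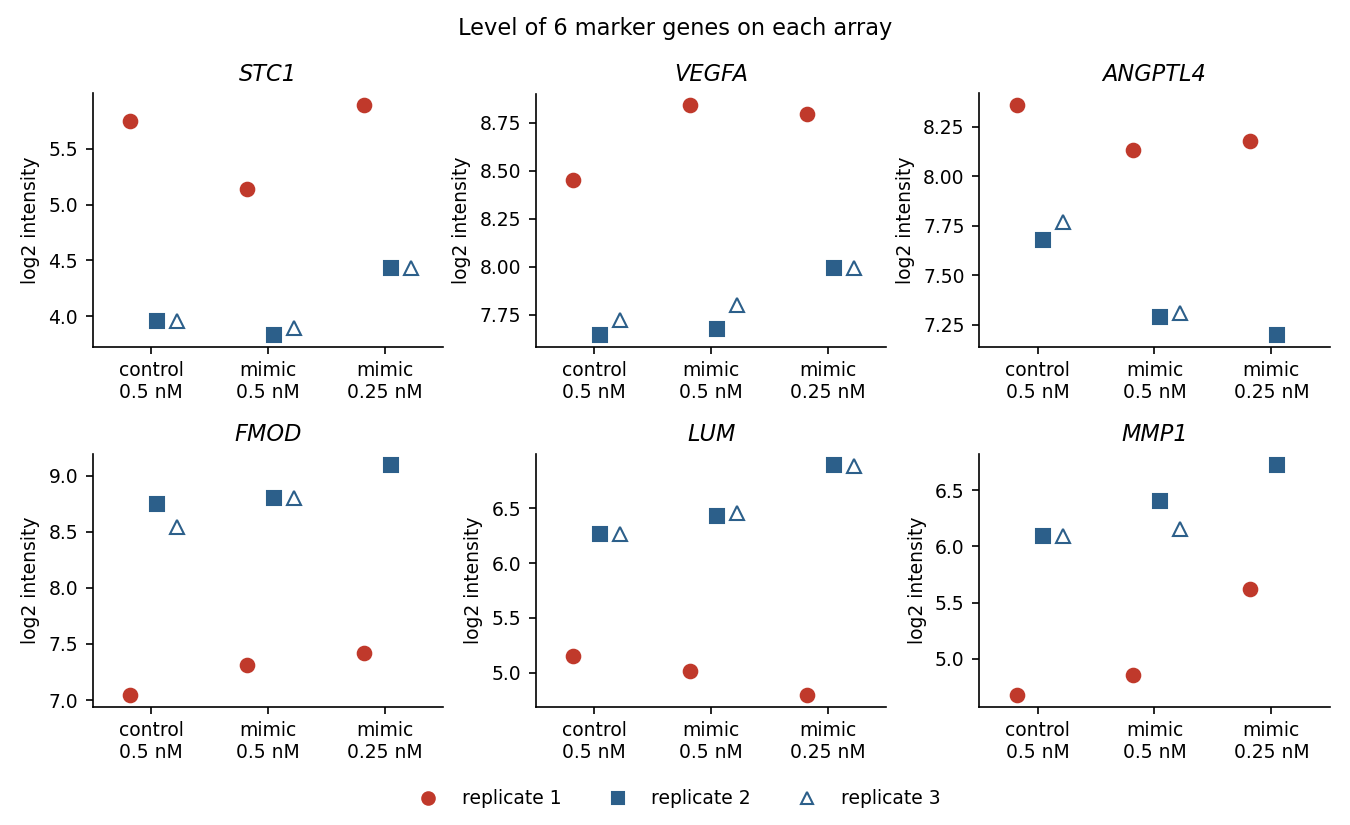
Log2 intensity on each of the 9 arrays (vertical axes, each to its own scale) for the 6 marker genes, by transfection group, with circles for replicate 1, squares for replicate 2 and triangles for replicate 3; a missing triangle is a value left out. STC1 read 5.14 to 5.89 in replicate 1 and 3.83 to 4.43 elsewhere, while FMOD read 7.04 to 7.42 in replicate 1 and 8.54 to 9.09 elsewhere.

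The other genes of the hypoxia-induced list were not apart. Over all 24 genes of the list, with the 5 apart included, the median difference was 0.09, against 0 for all genes. Of the 24, 20 were above 0, 2 below and 2 at exactly 0. Of all genes, 37.5% were above 0, 44.8% below and 17.7% at exactly 0, and the sign counts of every list are to be read beside these shares. DDIT4, an inhibitor of mTORC1, stood at 0.46. ADM, the vasodilator peptide adrenomedullin, stood at 0.01, the stress gene NDRG1 at 0.02 and the oxygen sensor EGLN3 at -0.01. The split of signs moved with scaling: with arrays shifted to the same median 14 genes were above 0 and 10 below, and 4 of the list were apart, while quantile normalization left 20 above, 4 below and 5 apart. Genes of glycolysis and lactate export were divided, with 4 above 0 and 5 below among 9 measured and none apart. Phosphoglycerate kinase PGK1 stood at 0.25, lactate dehydrogenase LDHA at 0.19 and hexokinase HK2 at -0.21.

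VEGFA and ANGPTL4 were also the 2 genes apart among 16 secreted angiogenic factors, against 0.466% of all genes, and as markers of the split they describe that choice. In this list 8 genes were above 0 and 5 below. VEGFB stood at 0.37, FGF2 at -0.39 and PDGFA at -0.28. Receptors of VEGF were looked at after their values were seen. FLT1, VEGF receptor 1, was apart and lower at -0.85, and so was the co-receptor NRP1 at -0.66.

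**Figure D2:**
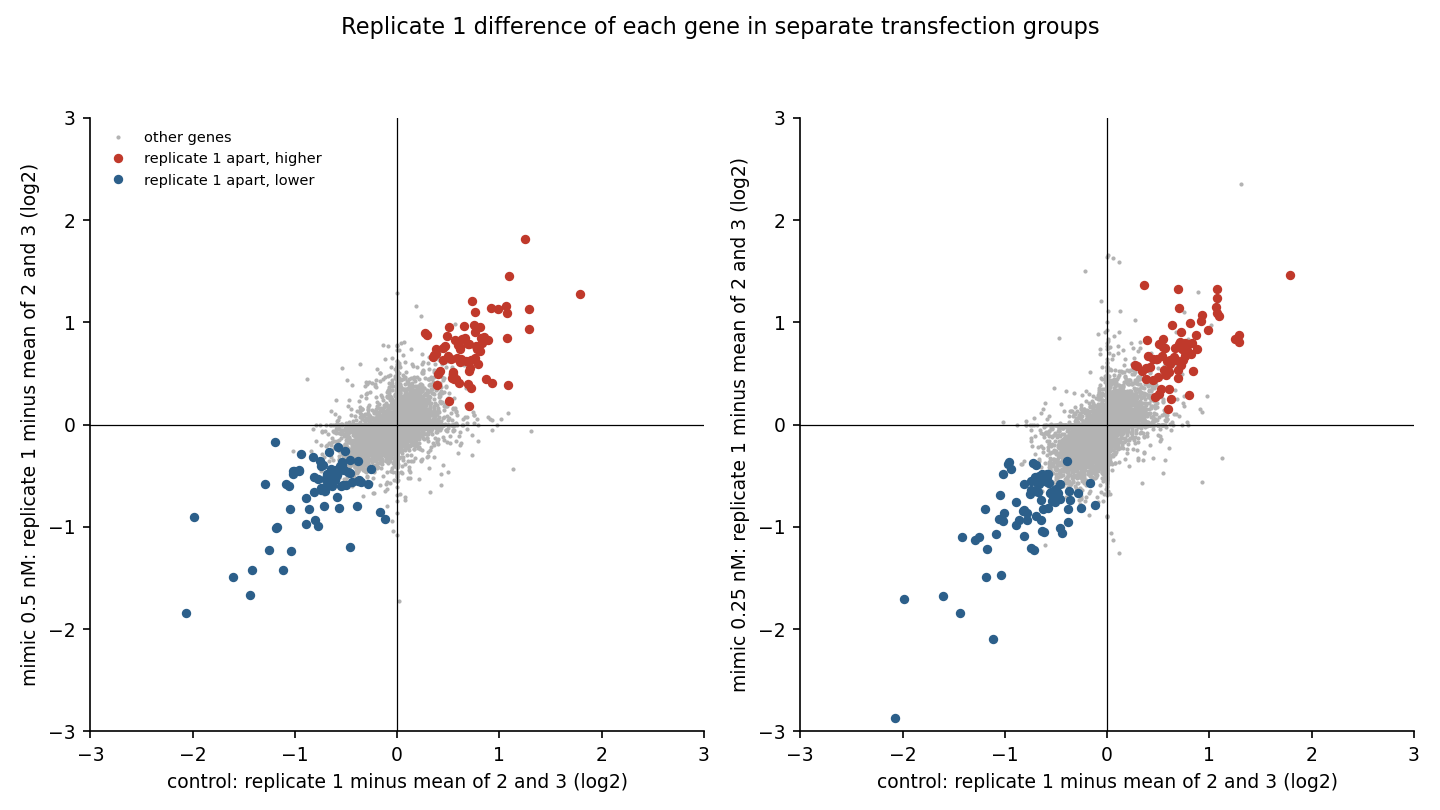
Each point is 1 of 14812 genes, with its replicate 1 difference in the control on the horizontal axis and in 1 mimic group on the vertical axis, in log2 units; colours mark the 69 genes with replicate 1 apart and higher and the 82 apart and lower. Coloured points lie in the upper right and lower left by construction of the rule, and the remaining genes form a cloud around 0.

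Matrix genes were among the lower values. Replicate 1 was apart and lower for 3 of 12 small leucine-rich proteoglycans measured, against 0.554% of all genes, and FMOD and LUM were among the markers of the split. FMOD, fibromodulin, read 7.04 against 8.75 and 8.54 in the control, 7.31 against 8.80 on both at 0.5 nM, and 7.42 against 9.09 in replicate 2 at 0.25 nM. Its mean difference was -1.59 ± 0.09 (SD, n = 3), 3.01-fold lower, and the 3 group differences were nearly equal. LUM, lumican, read 5.15 against 6.27 on both, 5.02 against 6.43 and 6.46, and 4.79 against 6.89 on both, a mean of -1.55 ± 0.50 or 2.92-fold lower. The gap for LUM was widest at 0.25 nM, and no replicate 1 array reached the lowest of the others.

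BGN, biglycan, was the third member and had not been used to choose the split by name. It read 7.97 against 8.64 and 8.57 in the control, 8.13 against 8.74 and 8.73 at 0.5 nM, and 8.50 against 9.12 and 8.99 at 0.25 nM. The difference was similar in each group, at -0.60 ± 0.04, 1.51-fold lower. Of the other 9 proteoglycans of the list 5 were tied, with a difference of exactly 0, and the list median was 0. Such ties arise where the summary of an array set gives several arrays 1 value, and they do not show that a gene was unchanged.

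Collagens and matrix glycoproteins could be read only in part, since 8 of the 30 listed were measured. None of the 8 was apart, 1 was above 0 and 5 below. Tenascin C, TNC, stood at -0.19 and fibronectin, FN1, at 0.21. Matrix genes outside these lists were apart in both directions. LOXL3, a lysyl oxidase that crosslinks collagen and elastin, stood at -0.57. GPC6, a heparan sulphate proteoglycan of the cell surface, read 8.38 against 9.58 and 9.56, 8.71 against 9.76 and 9.68, and 8.68 against 10.17 in replicate 2. Its mean was -1.23 ± 0.24, 2.34-fold lower, with no overlap. EMILIN2, an elastic fibre glycoprotein, went the other way and read 10.28 against 9.34 and 9.38, 10.31 against 9.23 and 9.11, and 10.13 against 9.10 and 9.13, a difference of 1.02 ± 0.11 or 2.03-fold.

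Among 12 matrix proteases and inhibitors, 2 were apart, both lower, against 0.554% of all genes; MMP1 was used to choose the split, so the count describes that choice in part. MMP1, interstitial collagenase, read 4.67 against 6.09 on both in the control, 4.85 against 6.40 and 6.15 at 0.5 nM, and 5.62 against 6.72 in replicate 2 at 0.25 nM. All replicate 1 values were below all others, by -1.31 ± 0.19 on average, 2.49-fold. MMP15, a membrane-anchored metalloproteinase, read 7.78 against 8.66 and 8.67, 7.29 against 8.30 and 8.23, and 7.37 against 8.41 and 8.30. Its mean was -0.95 ± 0.05, 1.93-fold lower, with group differences close to each other. The cysteine protease CTSK lay just outside the limit at -0.499, as did the syntenin gene SDCBP at 0.499, while INSIG2 at 0.501 and SPHK1 at -0.502 lay just inside. ADAM12, a disintegrin metalloproteinase outside the list, was apart at -0.86 ± 0.07.

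Fibroblasts share LUM and other matrix genes with melanoma cells, so the levels of fibroblast markers are set beside these values. Of 8 fibroblast markers 3 were measured. Their summed log2 level was 12.9 to 13.6 in replicate 1 and 14.1 to 15.5 in the rest, and LUM was 1 of the 3. DCN and THY1 alone summed to 7.79 to 8.65 in replicate 1 and 7.79 to 8.68 elsewhere. In RNA from whole cultures, fewer cells of a type and less RNA per cell cannot be told apart.

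The largest difference of all was that of FGL2, a secreted fibrinogen-like protein with roles in immune regulation. FGL2 read 5.13 against 7.06 and 7.35 in the control, 5.24 against 7.14 and 7.02 at 0.5 nM, and 4.28 against 7.11 and 7.18 at 0.25 nM. No replicate 1 array came near the others, and the mean difference was -2.26 ± 0.54, 4.79-fold lower. EBF3, a transcription factor of the early B-cell factor family, read 5.67 against 7.11 on both, 5.71 against 7.39 and 7.34, and 5.60 against 7.44 in replicate 2. Its difference was -1.65 ± 0.20, 3.13-fold lower. The secreted or membrane proteins OLFML3, NPTX1, NELL1 and ITM2A followed at -1.25, -1.19, -1.13 and -0.91. The zinc finger gene ZNF480 was 2.00-fold lower, and in log2 units the xylosyltransferase GXYLT2 at -0.91, the galactolipid enzyme UGT8 at -0.90 and the mitochondrial sulphide oxidase SQOR at -0.87.

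CCL2, the monocyte chemoattractant, and CXCL8, the neutrophil chemoattractant interleukin 8, were the 2 genes apart among 12 NF-kB and inflammatory secreted genes, both lower, against 0.554% of all genes. CCL2 read 4.29 against 6.21 and 6.34, 5.02 against 6.15 and 5.69, and 4.58 against 6.43 and 6.13. The gap was smallest at 0.5 nM, where replicates 2 and 3 themselves differed most, and the mean was -1.53 ± 0.56 or 2.89-fold lower. CXCL8 stood at -0.78 ± 0.29. The list as a whole was divided, with 5 genes above 0, 6 below and 1 at exactly 0. The alarmin IL33 was apart at -0.89. None of 13 listed interferon-induced genes was apart, with 4 above 0 and 9 below, beside 37.5% and 44.8% of all genes. Outside that list the interferon-induced gene IFITM2 was apart and higher at 0.64 ± 0.03, as was the related pseudogene IFITM4P at 0.76.

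**Figure D3:**
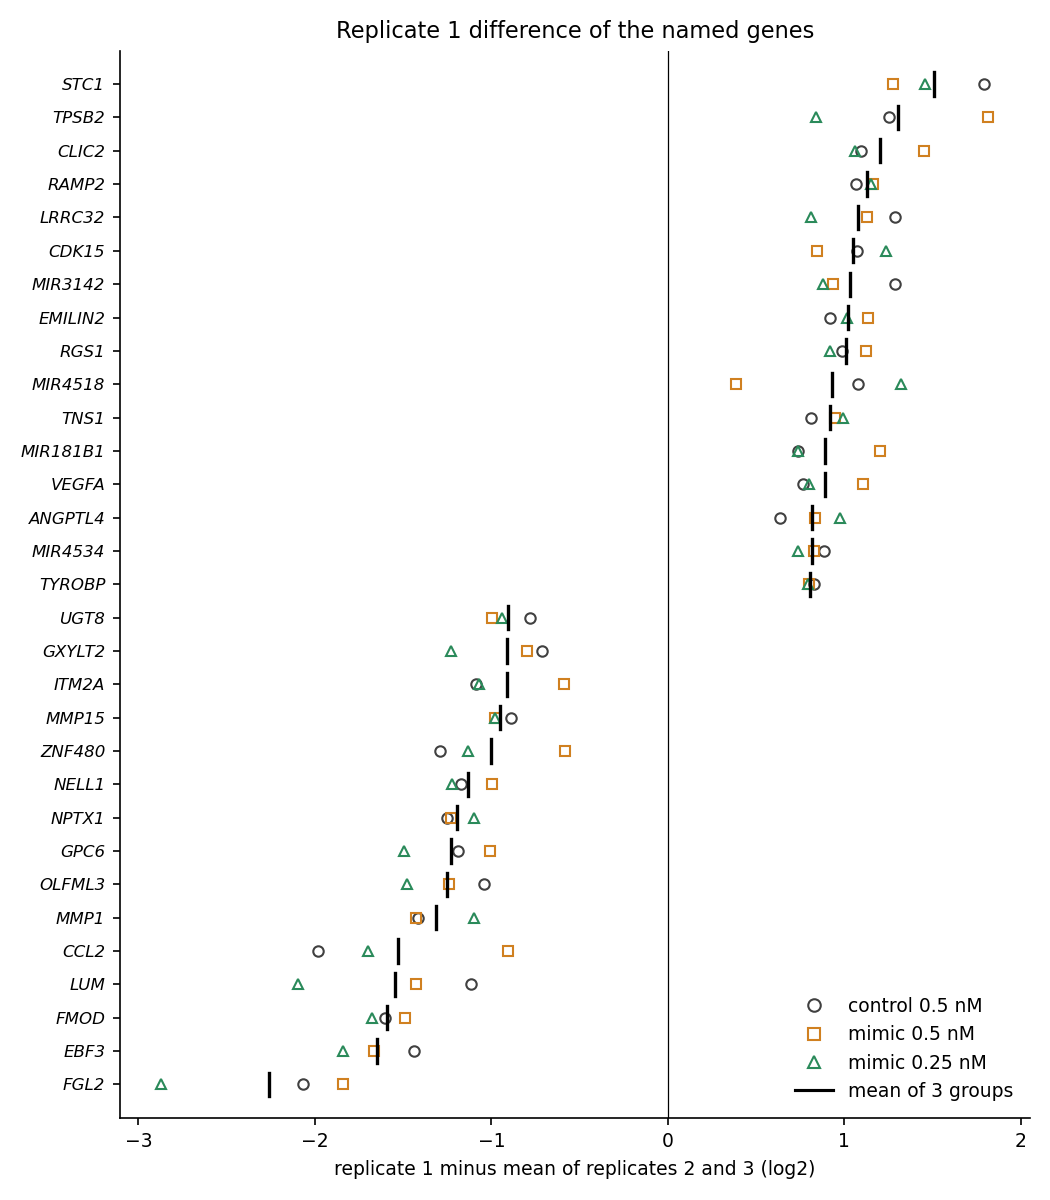
Replicate 1 difference in each of the 3 transfection groups, in log2 units, for the genes with the largest differences in each direction and the markers, with a bar at the mean of the 3 groups. FGL2 has the lowest mean, -2.26, and STC1 the highest, 1.51.

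Growth genes gave small differences that mostly had 1 sign. Of 22 DNA replication genes all 22 were below 0, from -0.55 to -0.01, with a median of -0.16 against 0 for all genes. Replicate 1 was the lowest array in all 3 groups for 15 of the 22, against 8.95% of all genes and 24.5% of the 3405 genes with a level of at least 8, and 19 of the 22 lay at such levels. Quantile normalization left 17 below 0, 5 above and 14 lowest in all groups, so the sign of single small differences moved with scaling. The share of all genes lowest in all groups moved too, to 21.5% after quantile normalization and 18.1% once arrays were shifted to 1 median, where 16 of the list were lowest. MCM7 was the 1 gene of the list apart, lower, against 0.554% of all genes. It read 9.53 against 10.13 and 10.10 in the control, 10.01 against 10.49 and 10.51 at 0.5 nM, and 9.83 against 10.39 and 10.40 at 0.25 nM. Within groups the difference was -0.55 ± 0.05, 1.46-fold lower, and its size hardly differed from group to group.

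Other genes of the list stood nearer to 0. Cyclin E1, CCNE1, which drives entry into S phase, stood at -0.44, MCM5 at -0.35, the helicase loader CDC6 at -0.27, PCNA at -0.24 and MCM6 at -0.18. Genes of mitosis did not share this: among 22, 9 were above 0, 12 below and 1 at exactly 0, the median was -0.01 and none was apart. The difference between both lists was not tested.

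Ribosomal protein and chaperone genes also lay mostly below 0. For 15 ribosomal protein genes the median was -0.11, with 12 below 0, 2 above, 9 lowest in all groups and none apart. Replicate 1 was lowest in all groups for 8.95% of all genes and 24.5% of those with a level of at least 8. RPL32, a ribosomal protein gene outside that list, was apart and lower at -0.56 ± 0.04. All 7 endoplasmic reticulum chaperone genes were below 0, with a median of -0.11, and they were below 0 also after quantile normalization. The shift of arrays to the same median lowered the median of all genes to -0.02, so it could not bring these genes above 0. HYOU1, a chaperone of the endoplasmic reticulum, stood at -0.27 and CALR, calreticulin, at -0.11. Bright genes leaned the same way in general: of the 3405 with a level of at least 8, 61.7% were below 0 and their median was -0.02, and replicate 1 was highest in all 3 groups for 9.07%.

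Of 6 oxidative stress genes, 5 were below 0 and 4 were lowest in all groups, against 8.95% of all genes. Their median was -0.31 and none was apart. The haem oxygenase HMOX1 stood at -0.35 and thioredoxin reductase TXNRD1 at -0.33. PRDX1, a peroxiredoxin outside that list, was apart. It read 8.20 against 9.25 on both, 7.86 against 8.66 and 8.71, and 8.02 against 8.72 in replicate 2, a difference of -0.86 ± 0.18.

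**Figure D4:**
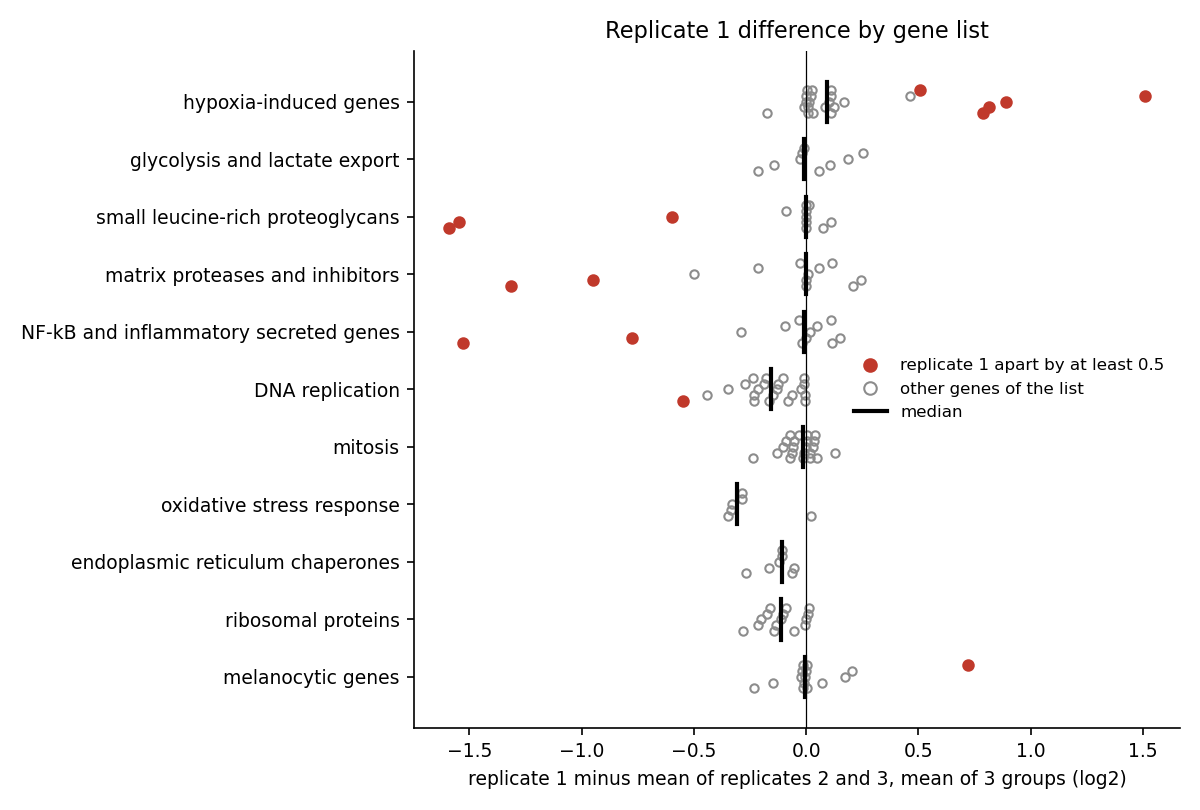
Replicate 1 difference of every measured gene, as the mean over 3 groups in log2 units, for 11 gene lists, with filled points where replicate 1 was apart by at least 0.5 and a bar at the list's median. All 22 DNA replication genes lie below 0, with MCM7 lowest. The 5 filled points of the hypoxia-induced list run from BNIP3 at 0.51 to STC1 at 1.51, and DDIT4, not apart, lies close below BNIP3.

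Melanocytic identity genes were divided. Over 15 genes 6 were above 0 and 8 below, and GPR143 was the 1 apart, higher, against 0.466% of all genes. GPR143, the melanosomal receptor whose loss causes ocular albinism, read 9.55 against 8.76 on both in the control, 9.46 against 8.87 on both at 0.5 nM, and 9.74 against 8.96 on both at 0.25 nM. It was higher by 0.72 ± 0.11, 1.65-fold, with no overlap between the groups of arrays. PMEL, the fibril protein of melanosomes, stood at 0.17 and the pigment enzyme TYRP1 at -0.15. Of 11 genes of the undifferentiated melanoma state, 6 were below 0 and 5 were lowest in all groups, against 8.95% of all genes. NRP1 was the 1 apart, lower, against 0.554% of all genes.

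Several signalling genes were among the remaining higher values. RAMP2, the accessory protein that turns the calcitonin receptor-like receptor into an adrenomedullin receptor, read 8.32 against 7.31 and 7.19, 8.60 against 7.36 and 7.50, and 8.55 against 7.47 and 7.33. The 3 groups were close, at 1.13 ± 0.05 or 2.18-fold. RGS1, which speeds the switching off of G proteins, read 8.67 against 7.66 and 7.71, 8.63 against 7.50 on both, and 8.77 against 7.85 on both, a difference of 1.01 ± 0.10. Its relative RGS4 stood at 0.78. LRRC32, which tethers latent TGF-beta to the cell surface, stood at 1.08, the intracellular chloride channel protein CLIC2 at 1.20, the focal adhesion protein TNS1 at 0.92, the kinase gene CDK15 at 1.05 and the immune adaptor TYROBP at 0.81 ± 0.02. The mast cell tryptase TPSB2 stood at 1.30 ± 0.49, but near-identical tryptase genes can share its probes.

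The receptor tyrosine kinase MET, a known target of this microRNA, was apart in the same direction in every group. It read 9.48 against 8.77 and 8.80 in the control, 9.30 against 8.65 and 8.38 at 0.5 nM, and 8.88 against 8.34 on both at 0.25 nM. The difference by replicate was 0.67 ± 0.13, 1.59-fold. With the group means shifted to the same median, the mean of MET differed from the control by -0.33 at 0.5 nM and -0.63 at 0.25 nM. The gap by replicate was wider than the difference at 0.5 nM and close in size to that at 0.25 nM. Among the 151 genes the replicate 1 difference was larger than the range of the 3 shifted group means for 137, and IL33 and BNIP3 were among the exceptions. The 151 were chosen for large differences, so this describes the choice. Each group holds 1 array of each number.

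Among 8 PPAR and lipid droplet genes 2 were apart and higher, against 0.466% of all genes. ANGPTL4, a marker of the split that is also in the hypoxia-induced list, was 1 of the 2. The other remaining pathways had few genes apart. None was apart among the listed immediate early genes, where 4 of 16 were above 0 and 11 below, and JUN stood at -0.47. Of all genes 37.5% were above 0 and 44.8% below, and the sign counts of these short lists were not tested against that. The immediate early response gene IER5, outside that list, was apart at -0.60. The ephrin receptor EPHA2, at -0.55, was apart among 12 genes of MAP kinase feedback, and CRIM1, a membrane-anchored regulator of bone morphogenetic proteins, at -0.66 among 9 YAP and TGF-beta targets, against 1.02% of all genes apart in either direction. In the cholesterol synthesis list 9 of 12 were below 0, with a median of -0.06 and none apart, although 2 were apart and lower with arrays shifted to the same median. The p53 targets had 2 of 8 above 0 and 6 below, and ATF4 targets 7 of 13 above and 6 below, with none apart in both lists. TRIAP1, a gene named for its regulation by p53 and outside that list, was apart at -0.503.

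The same genes were compared between replicates 2 and 3, which the choice of arrays did not use. limma, with transfection group as a term and Benjamini-Hochberg adjustment, called 0 of 14812 genes (0%), with 61 genes (0.412%) at an unadjusted p under 0.05 and a smallest adjusted p of 1. The error of this fit also holds the differences of replicate 1 between groups, so it can miss genes. The 0 calls therefore do not show that replicates 2 and 3 were alike. Without control replicate 3 limma called 74, without 0.5 nM replicate 3 it called 89, and without 0.25 nM replicate 2 it called 1. Among the 151 genes with replicate 1 apart, 3 had an unadjusted p under 0.05 for replicate 2 against 3, namely LCE2B, MIR146A and SCARNA5. Over the 151 genes the median of the largest gap between replicates 2 and 3 was 0.155 and that of the replicate 1 difference 0.65 in size; the rule that chose the genes favours a wide difference beside a narrow gap, so these values describe the choice.

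Across all genes the pair of arrays numbered 2 and 3 was the closest in every group. The SD over genes of the difference between those arrays was 0.094 in the control, 0.111 at 0.5 nM and 0.102 at 0.25 nM. Pairs with replicate 1 had an SD of 0.160 and 0.175 in the control, 0.154 on both at 0.5 nM, and 0.182 and 0.177 at 0.25 nM. The replicate 1 difference of a gene correlated between groups at r = 0.50 for control and 0.5 nM, 0.59 for control and 0.25 nM, and 0.50 for both doses, across 14812 genes. For the difference between replicates 2 and 3 the same correlations were -0.03, -0.06 and -0.03, across 14812 genes for the first and 11978 for the other two. Genes are not independent replicates, and these are descriptions.

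As a description of the contrast itself, limma with a term for group called 804 genes (5.43%), 215 higher (1.45%) and 589 lower (3.98%), and 119 of the 151 were among them. The count without single arrays ran from 391 to 1158: it was 391 without control replicate 2, 414 without control replicate 3, 483 without 0.5 nM replicate 2, 457 and 503 without 0.25 nM replicate 2 and 3. With no minimum difference, replicate 1 was highest in all groups for 557 genes (3.76%) and lowest for 1325 (8.95%). Both counts moved with scaling, to 1616 and 3183 after quantile normalization and to 423 and 2674 once each array was shifted to 1 median.

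Whether the difference depended on the transfection group was tested by the interaction, which the choice of arrays did not use. limma's F test called 3820 of 14812 genes (25.8%) and 29 of the 151 (19.2%). Its error comes from the gaps between replicates 2 and 3 alone, which are exactly 0 for many genes, so these p-values can be far too small. Calls were more frequent among genes whose replicates 2 and 3 were tied: among genes with replicates 2 and 3 equal in all 3 groups 1749 of 3818 were called (45.8%), and among genes with no such tie 65 of 1068 (6.09%). The median spread of the 3 group differences among called genes was 0.137. When only genes whose replicates 2 and 3 differed in every group were fitted, a choice made after the data were seen, 5 were called. That fit held far fewer genes than the 14812, so its count cannot be set beside 3820. For LUM the group differences of -1.12, -1.43 and -2.10 had an interaction adjusted p of 0.000122 by limma, and for STC1 those of 1.79, 1.28 and 1.46 one of 0.00949.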

How the data were processed

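The deposited values are log2 intensities that the authors made from human gene arrays labelled with the GeneChip WT PLUS reagent; oligo, affy and RMA are named without a version in the submitters' processing notes. In the deposited values arrays of a group share exact ties, and the groups therefore appear to have been summarised apart; no source states it. Of 44629 rows, 15835 had 1 gene symbol in the platform annotation and 28794 had several or none and were left unnamed. All 15835 matched the RefSeq gene table, and the brightest row of each of 14812 genes was used. In 0.25 nM replicate 3 values with under 10 digits were dropped. Arrays give no read depth, and their number, 3 a group, limits the precision.

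Differences were taken within groups. limma 3.58.1 in R 4.3.3 fitted 3 models on all genes with transfection group as a term, with Benjamini-Hochberg adjustment at 0.05: replicate 1 against the rest, replicate 2 against 3, and the interaction of replicate 1 with group. They were run on simulated data with known changes, whose random errors held no ties. Those runs do not show how the models behave on tied values such as the deposited ones. The members, markers and 30 gene lists were chosen with earlier results of these data known. The genes named are the 6 markers, the 15 largest differences in each direction among genes apart with a level of at least 5, list members apart with up to 4 others a list, and genes apart that passed the interaction; genes outside this rule were chosen after their values were seen. Alternatives covered scaling, the dropped values, the row per gene, dim genes, ties, the minimum difference and each array left out.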

Additional observations from a re-analysis of the deposited data

Results flagged for a closer look

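limma's test of the interaction between the replicate 1 difference and the transfection group, with Benjamini-Hochberg adjustment over all genes, called 3820 of 14812 genes. Fitted only to genes whose replicates 2 and 3 differ in every group, a far smaller set, it called 5. The error of this test comes from the gaps between replicates 2 and 3, which for many genes are exact or near ties, such as HEXIM1 with a largest gap of 0.0008, so the p-values of such genes can be far too small. Among the genes with replicate 1 apart and lower, the interaction had an adjusted p by limma of 8.22e-08 for HEXIM1, 4.33e-07 for GOLM1, 6.57e-05 for FLT1, 0.000122 for LUM, 0.000214 for ITM2A, 0.00037 for MYEOV, 0.00354 for IER5, 0.00359 for LPAR4, 0.00422 for IL33, 0.0111 for ANAPC15, 0.0173 for DNER, 0.0183 for GALNT5, 0.0189 for TM4SF1, 0.0197 for SYT6, 0.0254 for OLFML3, 0.0285 for RASSF3, 0.0309 for ZNF451, 0.0342 for TRIAP1, 0.0449 for FJX1, 0.0489 for TRMT1 and 0.0499 for EBF3. Among those apart and higher it was 0.000179 for GPR143, 0.000647 for ARRDC3, 0.00556 for TEKT5, 0.00949 for STC1, 0.0108 for BEND5, 0.0465 for TFCP2L1, 0.0469 for TBCK and 0.0481 for BNIP3. Of the list genes named that were not apart, DDIT4 had 0.0302, CCNE1 0.02 and HMOX1 0.0414. The genes apart have 1 direction in all 3 groups by the rule that chose them, so their interaction concerns the size.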

How the results depend on the processing

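No paired analysis was possible because the replicate number is itself the contrast. The 151 genes with replicate 1 apart became 150 after a shift of each array to 1 common median, of which 138 were shared, and 139 after quantile normalization, of which 136 were shared. The count was 21 at a minimum of 1 log2 unit and 1882 with no minimum, and it ran from 122 to 197 without single arrays. The limma count of replicate 1 against the rest, 804, became 127 without the group term and ran from 391 to 1158 without single arrays. With arrays shifted it was 217 higher and 911 lower. Replicate 2 against 3 gave 0 to 89 genes without single arrays, and 0 under every scaling and filter run. That fit can miss genes, since its error also holds the differences of replicate 1 between groups. The interaction count of 3820 fell to 1324 with arrays shifted and 1306 after quantile normalization. It ran from 3674 to 5344 without single arrays of replicates 2 and 3, and the cause was not tested. The 5 calls among genes whose replicates 2 and 3 differ in every group came from a fit to far fewer genes. With all pairs measured, 1068 genes had no such tie, so the 5 cannot be set beside counts of 14812. No difference of the 6 markers reversed under any alternative run. The split was chosen with these markers, and replicate 1 lay beyond the others in every group, so a reversal could hardly occur and this supports nothing. FMOD against replicate 3 alone was -1.49. Replicate 1 has 1 array in each group, so its own spread within a group is not measured.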

Other observations

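Rows of the array with several gene symbols or none were not part of the comparison. Among these 28794 unnamed rows, replicate 1 was apart and higher for 316 and lower for 78, together 1.37% of them, beside 1.02% of named genes. The median level of all unnamed rows was 4.51.

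By RNA class, without a test, replicate 1 was apart and higher for 50 of 11911 protein-coding genes (0.420%), 4 of 1387 long noncoding RNA genes (0.288%), 7 of 1022 microRNA hairpin genes (0.685%) and 6 of 443 transcribed pseudogenes (1.35%), beside 0.466% of all genes. It was apart and lower for 78, 1, 1 and 0 of them. Signal of pseudogene and hairpin probes can come from a near-identical parent or host transcript, so those genes are uncertain. The microRNA hairpin genes that were higher included MIR3142 at 1.03, MIR4518 at 0.93, MIR181B1 at 0.89, MIR4534 at 0.82 and MIR146A at 0.62 log2 units, and MIR181A1HG, a host RNA of miR-181 genes, stood at 0.63.

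The prostaglandin synthases PTGES and PTGIS stood at 0.65 and 0.73 and the insulin-like growth factor binding protein IGFBP5 at 0.75. These 3 genes were chosen after their values were seen.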
